A study of Homo sapiens with 4 samples.

Results

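The genes described here are the chromatin modifiers and remodelers of the human genome that carry the symbols KMT, SETD, KDM, SMARC, ARID or BAZ, or CHD followed by a number. They were chosen by symbol among the protein-coding genes of GENCODE on hg19, which gave 77 of 20163 genes. The set holds 19 KMT and SETD genes, 20 KDM genes, 13 SMARC genes, 10 ARID genes, 4 BAZ genes and 11 CHD genes. The symbol is the only criterion, and it brings in CHD9NB, which is named as a neighbour of CHD9 and is not a helicase. Peaks of N7-methylguanosine (m7G) were mapped by antibody enrichment in HL60, an acute myeloid leukemia line labelled wild type, and in HL60/MX2, labelled as a drug-resistant line and known as a derivative of HL60 selected with mitoxantrone. Each line gave 1 enriched library with a peak list, from mRNA that had been decapped and fragmented before the antibody step, and 1 input library that was not analysed here. Each is a single cultured line without a replicate, so no difference between them was tested. A peak belonged to the gene whose exons it overlapped most on the same strand, which gave 35 peaks of the chromatin genes in HL60 and 60 in HL60/MX2, out of 8070 and 8122 listed peaks.

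Chromatin is changed by enzymes that place or remove marks on histone tails and by ATP-driven machines that slide, eject or exchange nucleosomes. KMT and SETD proteins are mostly lysine methyltransferases and KDM proteins lysine demethylases. SMARC and ARID proteins include the ATPases, scaffolds and DNA-binding subunits of the SWI/SNF (BAF) complexes, while BAZ and CHD proteins belong to the ISWI and chromodomain families of remodelers. In acute myeloid leukemia KMT2A is known for its fusions, KDM1A and the SWI/SNF ATPase SMARCA4 as genes that leukemic blasts depend on, and SETD2 as a gene with loss-of-function mutations. m7G is best known as the cap of mRNA, and it is also found inside mRNA, where the METTL1 and WDR4 complex is one known writer.

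Peaks of the 2 lists overlapped in 2 of the 77 genes, BAZ1A and ARID1B, and these sequences are shown because they are the stretches of chromatin gene mRNA that both libraries listed. BAZ1A, a subunit of the ACF remodeler, had the same interval in both lists, chr14:35252968-35253133 on the minus strand of hg19. It is the whole of coding exon 14 of 26, at 166 bp. ARID1B, a DNA-binding subunit of the BAF complex, had 1 peak per list in coding exon 1 on the plus strand, at chr6:157099287-157099506 in HL60 and chr6:157099064-157099337 in HL60/MX2, with 51 bp in common. The other 2 sequences are those of the highest-scoring coding peak of the set in each list. In HL60 this was a stretch of 19 bp in exon 8 of ARID1B, chr6:157469758-157469776. In HL60/MX2 it was the whole of exon 23 of 28 of SMARCC1, a scaffold subunit of the BAF complex, at chr3:47677512-47677626 on the minus strand. Sequences are given 5′ to 3′ on the strand of the gene, and capitals mark matches to 2 motifs, searched on that strand and free to overlap. The first, CUGKR, is CTG followed by G or T and then by A or G, and the second, GGAAR, is GGAA followed by A or G.
BAZ1A exon 14, both lists: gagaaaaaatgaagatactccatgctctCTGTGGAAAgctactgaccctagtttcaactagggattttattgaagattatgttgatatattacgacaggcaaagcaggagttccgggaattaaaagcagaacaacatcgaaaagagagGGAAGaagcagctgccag
ARID1B exon 1, HL60: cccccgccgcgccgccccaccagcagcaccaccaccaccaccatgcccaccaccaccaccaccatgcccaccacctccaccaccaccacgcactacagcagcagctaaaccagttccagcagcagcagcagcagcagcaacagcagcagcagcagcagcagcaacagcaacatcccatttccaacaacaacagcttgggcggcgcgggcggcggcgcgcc
ARID1B exon 1, HL60/MX2: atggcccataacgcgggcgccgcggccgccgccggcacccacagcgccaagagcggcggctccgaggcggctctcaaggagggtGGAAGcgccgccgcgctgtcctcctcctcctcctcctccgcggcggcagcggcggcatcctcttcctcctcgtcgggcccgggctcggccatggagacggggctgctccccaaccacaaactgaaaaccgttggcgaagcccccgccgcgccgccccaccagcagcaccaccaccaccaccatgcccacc
ARID1B exon 8, HL60: gtaactactccagaccccc
SMARCC1 exon 23, HL60/MX2: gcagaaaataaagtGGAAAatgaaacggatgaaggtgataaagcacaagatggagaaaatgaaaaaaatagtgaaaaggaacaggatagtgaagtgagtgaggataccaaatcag

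The BAZ1A exon held 1 match to CUGKR and 2 to GGAAR. Among all peaks of like length (within 25%), 68.1% in HL60 and 68.7% in HL60/MX2 held CUGKR, and 51.8% and 48.9% held GGAAR. The HL60 peak in ARID1B exon 1 held neither motif, and the HL60/MX2 peak held GGAAR 1 time. Their GC content was 66.8% and 73.7%, and the HL60 stretch held 18 CAC and 22 CAG triplets counted without overlap. The SMARCC1 exon was 35.7% GC with 1 match to GGAAR, which 41.2% of HL60/MX2 peaks of like length held. These matches describe letters and are not sites.

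More of the chromatin genes carried a peak in HL60/MX2 than in HL60, and in HL60 the set had fewer peaks than genes with as many exons. In HL60, 24 of 77 genes (31.2%, 95% interval 21.1 to 42.7%) had a peak, beside 26.4% of all protein-coding genes. In HL60/MX2, 35 of 77 (45.5%, 34.1 to 57.2%) had a peak, beside 28.5%. The intervals are exact Clopper-Pearson intervals and cover counting error only. The chromatin genes are long, with a median of 22 exons and 9530 bp of exon against 8 exons and 4388 bp over all genes, so each was set beside the other genes in its band of exon number (17 bands). Genes of like exon number would have given 32.2 genes with a peak and 56.4 peaks in HL60, against the 24 genes and 35 peaks listed, a ratio of 0.621 for peaks. For genes with a peak, the 41.9% of like genes lies inside the members' interval. The same genes would have given 33.6 genes and 51.5 peaks in HL60/MX2, against 35 and 60, a ratio of 1.17. As a share of the peaks that fell on protein-coding exons, the set held 0.452% (0.315 to 0.628%) of 7740 in HL60 and 0.769% (0.587 to 0.989%) of 7804 in HL60/MX2. RNA levels and read depth were not analysed here, so a gene without a peak may lack the modification or may give too little RNA for a peak, and these cannot be told apart.

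Over broad bands of exon number, the HL60 members with 26 or more exons stood furthest under other genes of their size, though narrower bands went both ways. Of 27 members with 26 or more exons, 8 had a peak in HL60 (29.6%, 13.8 to 50.2%), beside 55.9% of 1307 other genes of that size. Within this band in HL60, 1 of 7 members with 28 to 30 exons had a peak (14.3%, beside 54.7%). At 35 to 37 exons it was 4 of 6 (66.7%, beside 51.9%). In HL60/MX2, 15 of the same 27 had a peak (55.6%, 35.3 to 74.5%), beside 56.5%. The 31 members with 13 to 25 exons stood close to other genes in both lists, with 41.9% against 36.2% in HL60 and 38.7% against 40.5% in HL60/MX2. Among the 19 members with 12 exons or fewer, 15.8% had a peak in HL60 beside 20.7% of others, and 42.1% in HL60/MX2 beside 22.3%.

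Most genes with peaks had few of them. A single peak was listed for 18 of 24 genes in HL60 (75%, 53.3 to 90.2%), beside 70.6% of all genes with a peak, and for 19 of 35 in HL60/MX2 (54.3%, 36.6 to 71.2%), beside 74.7%. Genes with a peak held 1.46 peaks on average in HL60 and 1.71 in HL60/MX2, beside 1.45 and 1.36 over all genes. These values over all genes, and the shares with a single peak, are not matched for exon number. Genes of like exon number would have given 56.4 peaks in 32.2 genes in HL60, against 35 in 24 listed. In HL60/MX2 they would have given 51.5 peaks in 33.6 genes, against 60 in 35. ARID1B and ARID5B had 4 peaks each in HL60 and CHD9 had 3. SETD7 and CHD2 had 4 each in HL60/MX2, and KMT2C, KDM7A, SMARCC1, SMARCC2 and ARID1B had 3 each. The plot of peaks per gene shows that the rows with 3 or more peaks are spread over the KMT and SETD, KDM, SMARC, ARID and CHD groups.

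**Figure D1:**
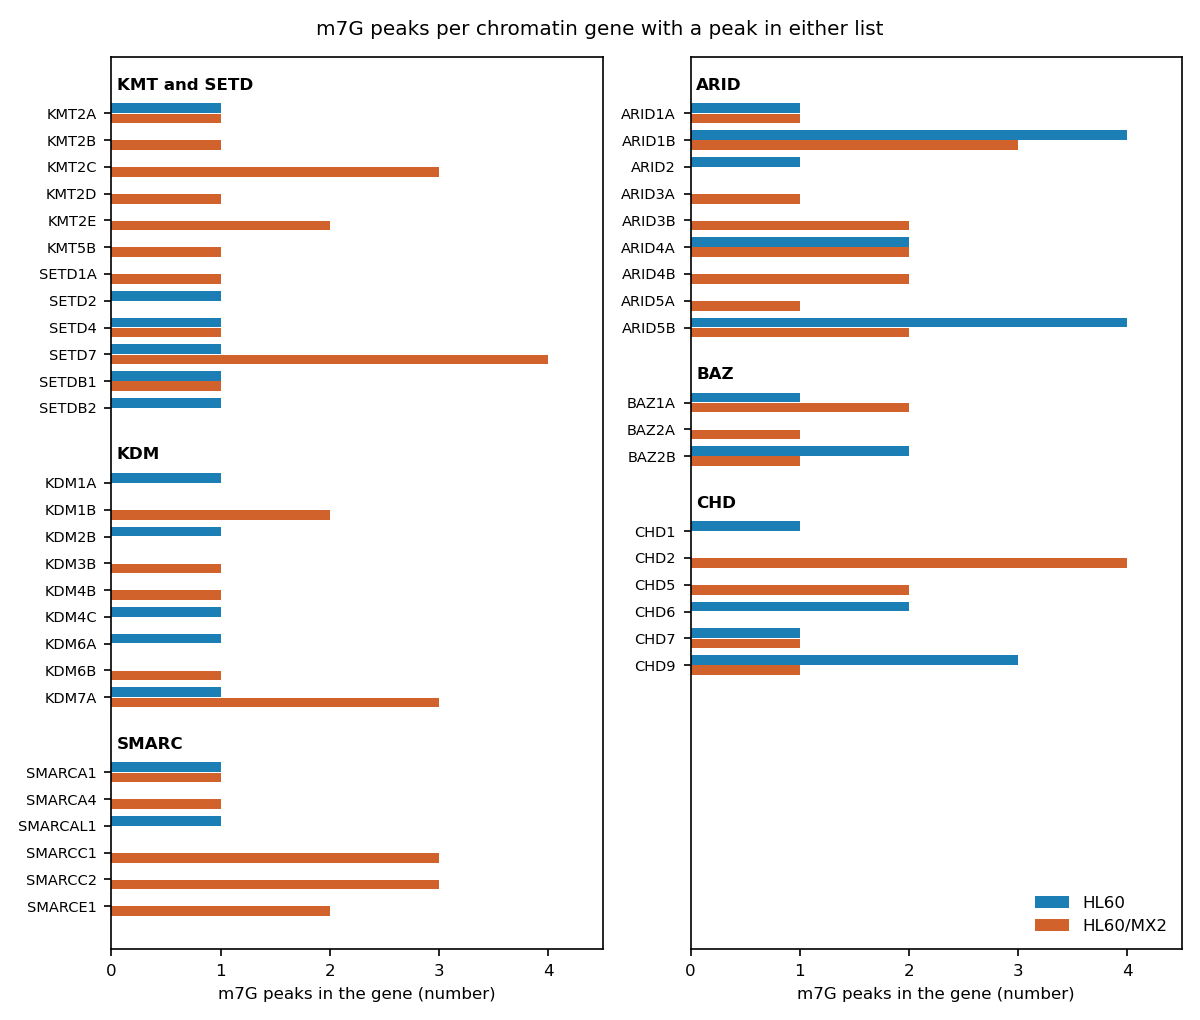
Number of m7G peaks (horizontal axis) in each of the 45 chromatin genes with a peak in either list, 1 pair of bars per gene, blue for HL60 and orange for HL60/MX2, ordered by enzyme group. Bars of both colours stand beside 14 gene names, blue alone beside 10 and orange alone beside 21.

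Between the lists, 14 of the 77 genes (18.2%, 10.3 to 28.6%) had peaks in both, beside 12% of all genes. Peaks in HL60 alone were listed for 10 genes (13%, 6.41 to 22.6%), beside 14.4%. Peaks in HL60/MX2 alone were listed for 21 genes (27.3%, 17.7 to 38.6%), beside 16.5%. The other 32 genes (41.6%, 30.4 to 53.4%) had no peak in either list. Among non-member genes with 22 to 24 exons, the band of the members' median, 34.2% had none. With 7 to 9 exons, the band of the median over all genes, it was 59.3%.

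The enzyme groups differed in how they stood to genes of like exon number. ARID genes had more peaks than such genes in both lists, 12 against 4.83 in HL60 and 14 against 5.00 in HL60/MX2. In HL60, ARID1B and ARID5B held 8 of the 12, and the other 8 ARID genes had 4 peaks against 3.85 expected, while in HL60/MX2 those 8 had 9 against 3.99. The 67 genes outside the ARID group, a division made after the values were seen, had 23 peaks against 51.5 in HL60 (ratio 0.446) and 46 against 46.5 in HL60/MX2 (ratio 0.990). Every group outside ARID lay under its like genes in HL60, from SMARC at 2 against 8.77 to BAZ at 3 against 3.38. In HL60/MX2, KDM and CHD lay under theirs, and KMT and SETD, SMARC and BAZ lay over. Groups of 4 to 20 genes leave wide intervals on every share.

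**Figure D2:**
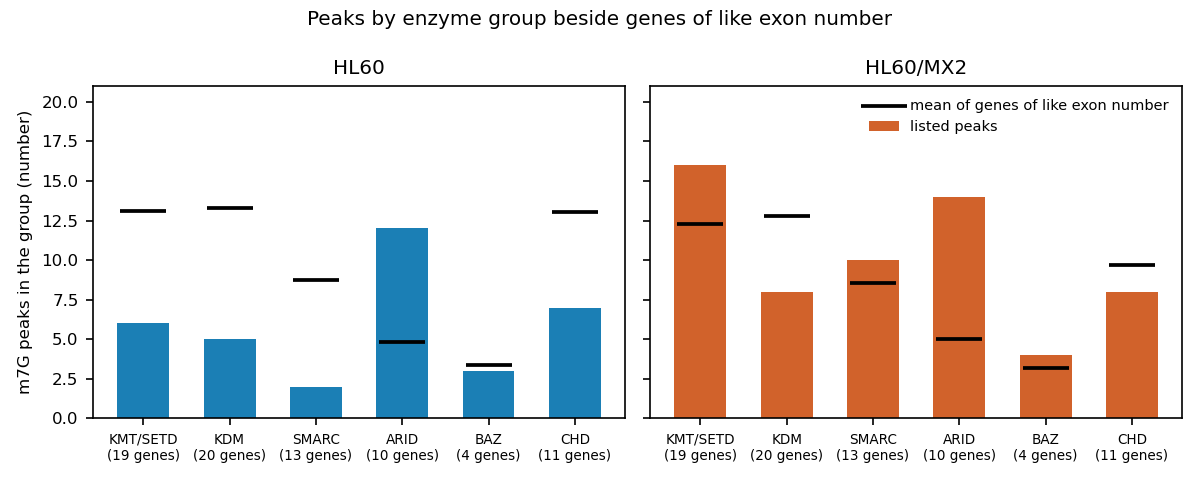
Number of m7G peaks (vertical axis) in each enzyme group, as bars, with HL60 on the left and HL60/MX2 on the right. Black lines give the number expected from the mean of other genes of like exon number, which ARID passed in both lists (12 against 4.83 and 14 against 5.00).

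Among the lysine methyltransferases, 6 of 19 genes had a peak in HL60 (7.37 expected from like genes) and 10 of 19 in HL60/MX2 (7.88 expected). KMT2A, which methylates lysine 4 of histone H3, had 1 peak in each list, a whole coding exon of 70 bp (exon 3 of 37, score 175) in HL60 and 55 bp in exon 30 (score 98.0) in HL60/MX2, 40301 bp apart. The HL60 peak of KMT2A also overlapped exons of a second annotated gene, ENSG00000285827. KMT2B, KMT2C, KMT2D and KMT2E carried peaks in HL60/MX2 alone. Genes with the exon number of KMT2C and KMT2D (51 to 65 exons) had a peak in 75% of cases in HL60 and 69.3% in HL60/MX2. For KMT2B (35 to 37 exons) these shares were 51.9% and 59.3%, and for KMT2E (25 to 27 exons) 45.2% and 51.3%.

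KMT2C, another lysine 4 methyltransferase, held 3 coding peaks in HL60/MX2, in exons 9, 36 and 40 of 60. Their scores were 94.5 over 29 bp, 95.9 over 530 bp and 216 over 35 bp, all under the list median of 259.7. The exon 9 stretch of 29 bp had an exact copy at 1 further place in the genome, so its placing is uncertain, and those in exons 36 and 40 had no exact copy elsewhere. Near-identical copies were not searched. KMT2D had its peak in the 3′UTR (score 330.3), and KMT2B its peak in exon 1 (score 167).

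SETD7, a methyltransferase of histone H3 and of other proteins, carried 4 peaks in HL60/MX2 beside 1 in HL60. In HL60/MX2 their scores were 63.0 in exon 7 of 8, 409.7 over exon 3, and 839.7 and 664 in exons that the longest coding transcript lacks. The peak with score 839.7, at chr4:140520993-140521245 on the minus strand, was the highest of the group. SETD7 in HL60 had a single peak of score 107, again outside the longest coding transcript and 21363 bp from the nearest peak of the other list. In HL60 the group was led by SETDB1, which methylates lysine 9 of histone H3, with a score of 286 over the whole of exon 15 of 22 (chr1:150931654-150931823, 170 bp).

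SETDB1 in HL60/MX2 had a peak in exon 11 with a score of 54.6, the lowest of all member peaks in that list. SETD4 had a whole-exon peak in HL60 (exon 9 of 10, score 283) and 10 bp in exon 4 in HL60/MX2 (score 489). SETD2, which trimethylates lysine 36 of histone H3, and SETDB2 had peaks in HL60 alone, both in the 3′UTR, with scores of 89.0 and 60.1. KMT5B and SETD1A had 1 peak each in HL60/MX2 alone, with scores of 251 and 63.8. No peak was listed in either line for KMT5A, KMT5C, SETD1B, SETD3, SETD5, SETD6 and SETD9.

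The demethylases carried few peaks, with 5 of 20 genes in each list against 8.05 and 8.45 expected from like genes. KDM7A, a demethylase of lysines 9 and 27 of histone H3, was the 1 gene of the group with peaks in both lists. Its HL60 peak covered the whole of exon 14 of 20 (chr7:139798679-139798833, score 97.3). In HL60/MX2 it had peaks over the whole of exon 6 (score 591), in exon 13 (score 414) and in the 3′UTR (score 112). The exon 13 peak lay 865 bp from the HL60 peak along the genome, in the neighbouring exon, the smallest gap between lists among the 12 genes whose peaks did not overlap.

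KDM1A and KDM1B, the flavin-dependent demethylases of lysine 4 of histone H3, fell in different lists. KDM1A had 47 bp in coding exon 14 of 20 in HL60 (score 119.5, which 28.7% of the list lay under). KDM1B had a peak of 160 bp over its 5′UTR exon in HL60/MX2, chr6:18155643-18155802, with a score of 931, the highest of the group, and a peak over its start codon exon with a score of 132. KDM6A and KDM6B, and KDM4B and KDM4C, also fell in different lists, while KDM4A, KDM4D, KDM4E and KDM4F had no peak. Over all genes, 14.4% had peaks in HL60 alone and 16.5% in HL60/MX2 alone, beside 12% in both. Such splits are thus not shown to be particular to the demethylases. KDM6A, a demethylase of lysine 27 of histone H3, had a whole coding exon in HL60 (score 181), and KDM6B, with the same substrate, had a coding peak in HL60/MX2 (score 94.0). KDM4C had the group's highest HL60 score (255, 43 bp in exon 4 of 22, chr9:6814631-6814673), and KDM4B had a peak in HL60/MX2 alone (score 468).

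KDM2B in HL60 (score 58.4) and KDM3B in HL60/MX2 (score 176, at the start codon) complete the demethylases with a peak. None of the KDM5 genes had a peak, and neither did KDM2A, KDM3A, KDM4A, KDM4D, KDM4E, KDM4F and KDM8. KDM5D lies on chromosome Y, and whether either line carries that chromosome was not examined. It adds to the numbers expected for the demethylases all the same.

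The SMARC genes with a peak were 2 of 13 in HL60, with 2 peaks, and 5 of 13 in HL60/MX2, with 10 peaks, where like genes gave 8.77 and 8.58 peaks. SMARCA1, an ISWI ATPase, had a coding peak in both lists, 49 bp with a score of 284 in HL60 (chrX:128650308-128650356), the highest of the group there, and 7 bp with a score of 195 in HL60/MX2. The second HL60 peak was in SMARCAL1, which remodels stalled replication forks (score 217). SMARCA4, SMARCC1, SMARCC2 and SMARCE1, an ATPase and 3 other subunits of the BAF complex, had peaks in HL60/MX2 alone. Among SWI/SNF subunits outside the set, SS18, BCL7A, BCL7B, DPF1 and ACTL6B had peaks in HL60 alone, and DPF3 and PHF10 in HL60/MX2 alone. PBRM1 and BICRAL had peaks in both lists, and ACTL6A, BCL7C, BICRA, BRD7, BRD9 and DPF2 in neither. Over all genes, 14.4% had peaks in HL60 alone, 16.5% in HL60/MX2 alone and 12% in both, so these splits are not shown to be particular to the complex.

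SMARCC1 held 3 peaks in HL60/MX2. The exon 23 peak printed above had a score of 1245, above 96.4% of the list and the highest of the 60 member peaks there. A peak over its start codon, chr3:47823099-47823405, had a score of 1111, and the whole of exon 13, 38 bp, had a score of 163. SMARCC2, its paralog, had peaks in exons 1, 2 and 15 of 29 with scores of 135, 61.3 and 116, all under the list median. SMARCA4 had a peak over its noncoding first exon (score 115). SMARCE1 had a peak with a score of 811 outside its longest coding transcript and a whole-exon coding peak with a score of 82.9, which also overlapped a readthrough gene. SMARCA2, SMARCA5, SMARCAD1, SMARCB1, SMARCD1, SMARCD2 and SMARCD3 had no peak in either list.

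In the ARID group 5 of 10 genes had a peak in HL60 and 8 of 10 in HL60/MX2, beside 3.30 and 3.58 expected. ARID1B, with 21 exons, held 7 of the 26 ARID peaks, while other genes of 19 to 21 exons averaged 0.586 peaks in HL60 and 0.603 in HL60/MX2. The exons of ARID1B over all transcripts cover 45931 bp, against a median of 9530 bp over the chromatin genes. Exon number does not match genes for this length, and matching for length was not done by group. The HL60 peaks of ARID1B had scores of 108 in exon 1, 438 in exon 8, and 355 and 145 in exons outside the longest coding transcript. The score of 438 was the highest of any member in HL60, and 84.8% of the list lay under it. Its HL60/MX2 peaks had scores of 782 in exon 1, 120.0 in exon 2 and 65.7 over the whole of exon 17, and that in exon 1 was the group's highest. ARID1A, its paralog in the BAF complex, had 1 coding peak per list, with a score of 74.0 in exon 6 in HL60 and 369 in exon 3 in HL60/MX2, 29779 bp apart.

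ARID5B, a partner of the demethylase PHF2, had 4 peaks in HL60 and 2 in HL60/MX2. The HL60 peaks lay in exon 6 (score 222) and in the last exon of 6083 nt, 1 coding (score 57.0) and 2 in the 3′UTR (scores 259 and 60.3). The HL60/MX2 peaks lay at the start codon (score 298) and outside the longest coding transcript (score 380.0). ARID4A and ARID4B, which bind the retinoblastoma protein, differed in that ARID4A had 2 peaks in each list (scores of 249.6 and 123 in HL60, 335 and 249 in HL60/MX2) and ARID4B had 2 in HL60/MX2 alone (scores of 282 and 415).

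ARID2, a subunit of the PBAF form of SWI/SNF, had a coding peak in HL60 alone (score 168). ARID3A, ARID3B and ARID5A had peaks in HL60/MX2 alone, with scores of 77.4 for ARID3A, 482 and 65.3 for ARID3B, and 686 at the start codon for ARID5A. ARID3C was the 1 ARID gene without a peak.

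BAZ1A, BAZ2A and BAZ2B had peaks and BAZ1B had none. The exon of BAZ1A listed in both lines had a score of 80.1 in HL60, which 14.9% of that list lay under, and 187 in HL60/MX2, which 36.9% lay under. BAZ1A had a further whole-exon peak in HL60/MX2, exon 8, with a score of 351. BAZ2B held the group's highest score in each list, 90.9 over 54 bp of exon 26 of 37 in HL60 (chr2:160231211-160231264) and 676 over the whole of exon 11 in HL60/MX2 (chr2:160285711-160285771). Its second HL60 peak lay in the 3′UTR with a score of 87.1. BAZ2A, a subunit of the NoRC complex that silences ribosomal genes, had 1 coding peak in HL60/MX2 (score 96.8).

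Of the CHD genes, 4 of 11 had a peak in each list, against 6.32 and 5.91 expected from like genes. CHD9 held 3 peaks in HL60, 43 bp over the whole of exon 28 of 39 (score 407, chr16:53325637-53325679, the group's highest there), 116 bp in exon 37 (score 294) and a peak outside its longest coding transcript (score 88.3). In HL60/MX2 it had 1 peak in exon 2 with a score of 85.1. CHD2 had 4 peaks classed as coding, all in HL60/MX2, in exons 3, 5, 23 and 38 of 39, with scores of 74.7, 169, 219 and 131. The exon 38 peak was 469 bp long but met the longest coding transcript only from position 5697 to 5725. Most of that peak thus lay outside this transcript. CHD7, the gene mutated in CHARGE syndrome, had 1 coding peak per list, with scores of 76.1 in HL60 and 269 in HL60/MX2, the latter the group's highest in that list (exon 3 of 38).

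CHD1 (score 122) and CHD6 (scores 61.5 and 64.1) had coding peaks in HL60 alone, and CHD5 (scores of 174 and 101) in HL60/MX2 alone. CHD3 and CHD4, the ATPases of the NuRD complex, had no peak in either list, and neither had CHD8, CHD1L and CHD9NB. Of 98 other genes with 38 to 40 exons, the number that CHD3, CHD4 and CHD8 have, 68.4% had a peak in HL60, 58.2% in HL60/MX2 and 18.4% in neither.

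The 14 genes with peaks in both lists mostly had them in different exons. Of the member peaks, 2 of 35 in HL60 (5.71%, 0.700 to 19.2%) and 2 of 60 in HL60/MX2 (3.33%, 0.406 to 11.5%) overlapped a peak of the other list, beside 6.13% and 6.09% of all listed peaks. BAZ1A and ARID1B were also the 2 genes with peaks of both lists in the same exon. In the other 12 genes the nearest peaks of the lists lay 865 to 54446 bp apart along the genome, with a median of 18084.5 bp.

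**Figure D3:**
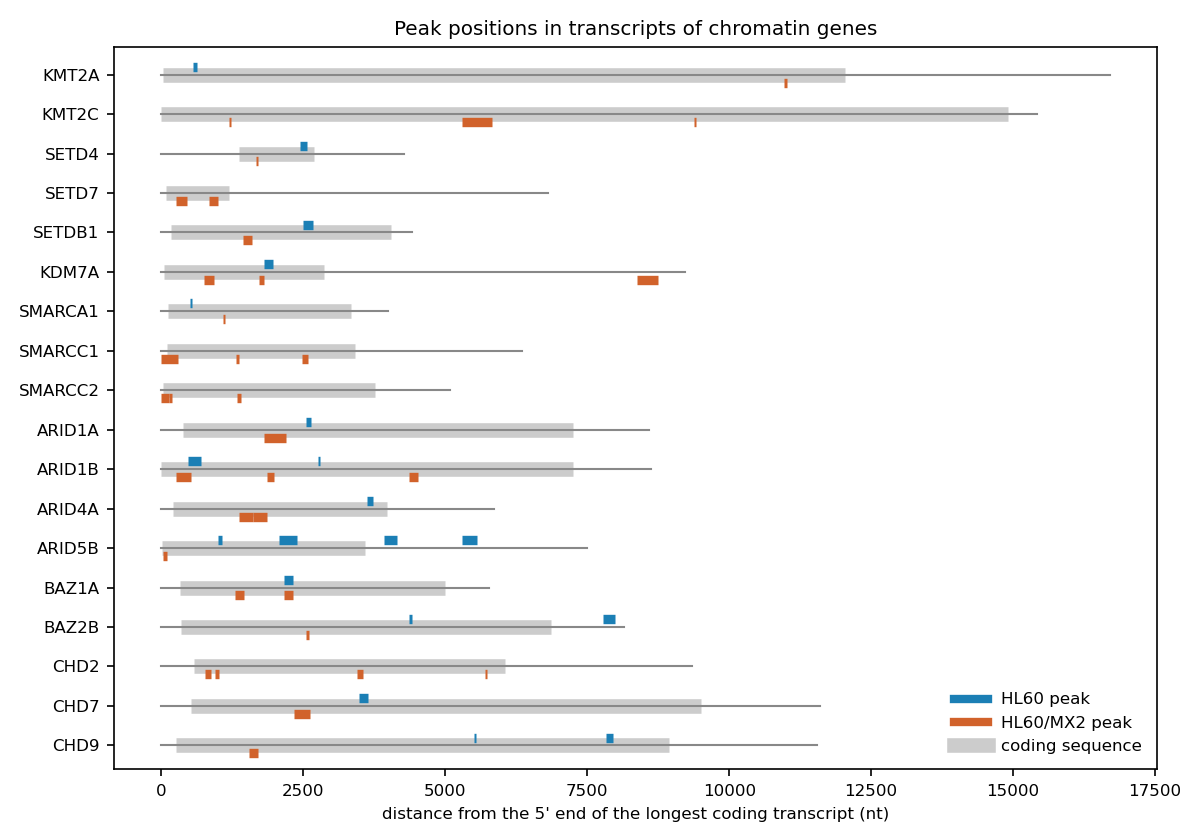
Position of the peaks along the longest coding transcript (distance from its 5′ end in nt) for the 18 chromatin genes with peaks in both lists or 3 or more peaks in 1 list, blue above the line for HL60 and orange below for HL60/MX2, with the coding sequence in grey and the shortest peaks widened to stay visible. Peaks that the longest transcript lacks are not drawn, and blue and orange meet in BAZ1A and ARID1B.

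Peaks in the chromatin genes lay mostly in coding sequence. Of the 29 HL60 peaks that could be placed on the longest coding transcript, 24 were coding (82.8%, 64.2 to 94.2%), beside 64.2% of all placed peaks of that list. Of 54 in HL60/MX2, 43 were coding (79.6%, 66.5 to 89.4%), beside 59.9%. Coding sequence made up 64.9% of the length of the members' transcripts and 3′UTR 26%. Among genes of 16 or more exons, a comparison added after the values were seen, the coding shares were 91.3% for members and 81.1% for others in HL60, and 82.2% and 78.1% in HL60/MX2. With start and stop codons of every coding isoform taken first, the members' coding shares were 58.8% in HL60, beside 47.6% of all peaks, and 55% in HL60/MX2, beside 43.6%.

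On the longest transcript, no member peak was classed at a stop codon (within 100 nt) in either list, beside 4.45% and 4.28% of all placed peaks, and counts of 0 of 29 and 0 of 54 allow shares of up to 11.9% and 6.60% (upper ends of the exact intervals). Other genes of 16 or more exons had 2.20% and 2.42% there. By any coding isoform, 3 of 34 member peaks in HL60 (8.82%) and 7 of 60 in HL60/MX2 (11.7%) were classed at a stop codon, beside 9.74% and 9.08% of all peaks. The 3′UTR held 5 HL60 peaks (17.2%, 5.85 to 35.8%), beside 21%, and 3 HL60/MX2 peaks (5.56%, 1.16 to 15.4%), beside 18.2%. Among genes of 16 or more exons the 3′UTR shares were 8.70% for members and 11.0% for others in HL60, and 4.44% and 9.14% in HL60/MX2. At the 5′ end, taken as the 5′UTR and the start codon with 100 nt on each side, HL60 had 0 of 29 member peaks (upper end 11.9%), beside 10.3%, and HL60/MX2 had 8 of 54 (14.8%, 6.62 to 27.1%), beside 17.6%. Among genes of 16 or more exons the HL60/MX2 order turned, with 13.3% for members and 10.4% for others, and the HL60 shares were 0 and 5.64%. By any coding isoform, 14.7% of member peaks fell at a 5′ end in HL60, beside 20.5% of all peaks, and 25% in HL60/MX2, beside 27.8%.

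The 8 peaks at the 5′ end in HL60/MX2 lay in 7 genes, KDM1B (2 peaks), KDM3B, SMARCA4, SMARCC1, SMARCC2, ARID5A and ARID5B. They held the second-highest and third-highest scores of the set in that list, 1111 in SMARCC1 and 931 in KDM1B. Their median GC content was 76.8%, and 6 of the 8 were over 70% GC. These values were not set beside 5′ end peaks of other genes, so high GC is not shown to be particular to the chromatin genes. As no member peak in HL60 was classed at a 5′ end of the longest transcript, none of these 7 genes had 1 there. ARID5B was the 1 of the 7 with any HL60 peak.

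**Figure D4:**
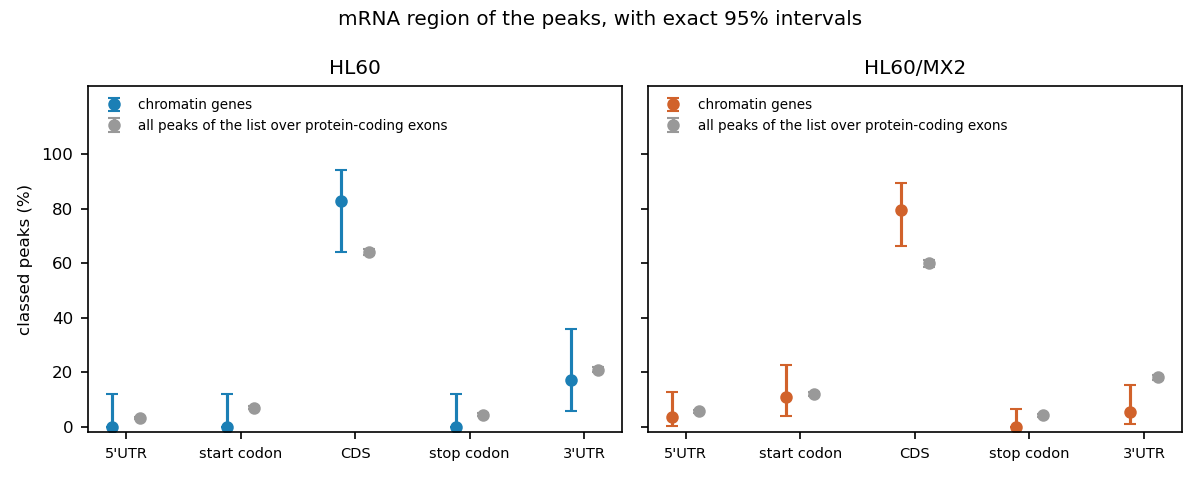
Share of classed peaks (%) in each region of the mRNA, coloured for the chromatin genes and grey for all peaks of the list over protein-coding exons, with HL60 on the left and HL60/MX2 on the right and bars for exact 95% intervals. The coding share of the chromatin genes stands at 82.8% and 79.6%, beside 64.2% and 59.9%, and the HL60 points for the 5′UTR and start codon stand at 0.

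Within the transcript, peaks often filled a whole exon. This was so for 9 of 29 HL60 peaks (31%, 15.3 to 50.8%), beside 26.2% of all placed peaks, and for 22 of 54 HL60/MX2 peaks (40.7%, 27.6 to 55%), beside 25%. Other genes of 16 or more exons had 34.2% and 30.5%, and members of that size had 34.8% and 37.8%. The longest exon held 17.2% and 11.1% of member peaks, beside 31% and 28.6% over the lists, and among genes of 16 or more exons the shares were 4.35% for members (1 of 23) and 14.6% for others in HL60, and 11.1% and 13.2% in HL60/MX2. The first exon held 1 HL60 peak (ARID1B, 3.45%), beside 8.57% over the list, and 8 HL60/MX2 peaks (14.8%), beside 15%. The last exon held 6 HL60 peaks (20.7%), beside 30.3%, and 4 HL60/MX2 peaks (7.41%), beside 27.2%, while other genes of 16 or more exons had 13.9% and 12% there.

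The median score of member peaks was under that of each list. The scale of the score is not stated, so it is read here within a list. The HL60 member peaks ran from 57.0 to 438 with a median of 122, against 197 for the list, and 12 of 35 (34.3%, 19.1 to 52.2%) reached the list median. The HL60/MX2 member peaks ran from 54.6 to 1245 with a median of 191, against 259.7, and 25 of 60 (41.7%, 29.1 to 55.1%) reached the list median. Each interval includes the share of all peaks on protein-coding exons, 50.3% in HL60 and 50.2% in HL60/MX2. Among genes of 16 or more exons the medians were 123 for members and 189.8 for others in HL60, and 172 and 252 in HL60/MX2. With 1 value per gene, its highest score, the members' median was 145 against 233 over all genes in HL60, and 326 against 307 in HL60/MX2, where the direction turned.

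No HL60 member peak was in the top 10% of its list (0 of 35, upper end of the interval 10%), beside 9.70% of all peaks on protein-coding exons. In HL60/MX2, 6 of 60 were (10%, 3.76 to 20.5%), close to the 9.80% of all such peaks. These 6 were the peaks of SMARCC1 (scores of 1245 and 1111), KDM1B (931), SETD7 (839.7), SMARCE1 (811) and ARID1B (782). The first peak of the set below them was that of ARID5A, at 686. Of these 6, 2 were coding (SMARCC1 exon 23 and ARID1B exon 1), 2 lay at a 5′ end (SMARCC1 and KDM1B) and 2 lay in exons that the longest transcript lacks (SETD7 and SMARCE1).

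**Figure D5:**
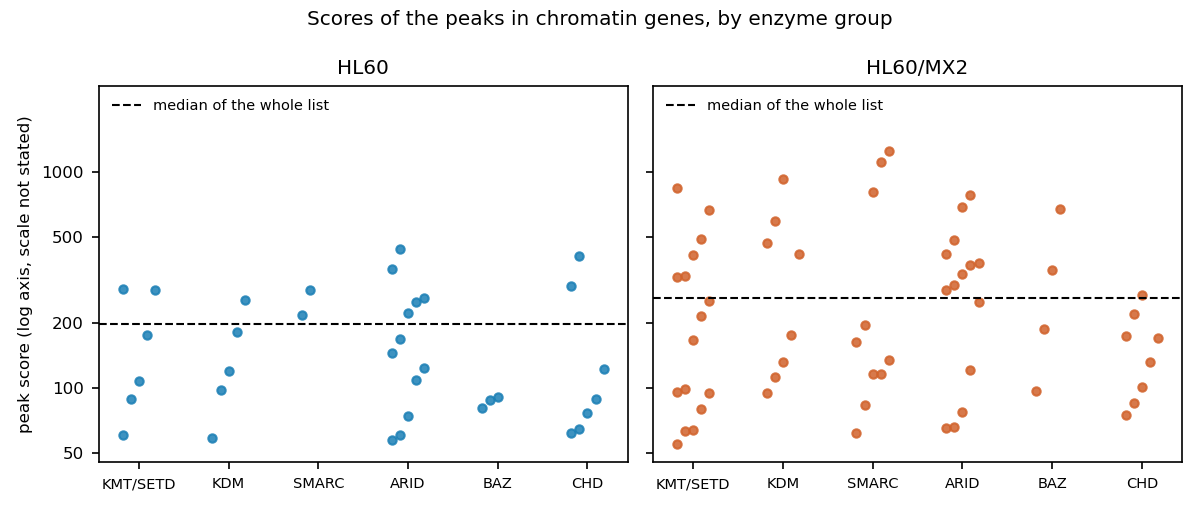
Score of every member peak (vertical log axis, scale not stated), 1 point per peak, by enzyme group, with HL60 on the left and HL60/MX2 on the right. The dashed line is the median of the whole list (197 in HL60), which 12 of 35 HL60 points and 25 of 60 HL60/MX2 points reach.

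In length, the member peaks had a median of 124 bp (17 to 431 bp) in HL60 and 156.5 bp (7 to 530 bp) in HL60/MX2, beside 128 and 132 bp over the lists. Their median GC content was 41.5% in HL60, beside 45.2% over the list, and 50% in HL60/MX2, beside 48.1%. The CUGKR motif was found in 54.3% of HL60 member peaks and 43.3% of HL60/MX2 member peaks (30.6 to 56.8%), beside 55.8% and 57.1% of all peaks on protein-coding exons. GGAAR was found in 37.1% and 53.3% (40 to 66.3%), beside 43.7% and 43.0%. In HL60/MX2 the share with CUGKR was thus under that of the list and the share with GGAAR over it, and the GGAAR interval includes the value of the list. Among genes of 16 or more exons, 43.5% of HL60/MX2 member peaks (28.9 to 58.9%) held CUGKR, an interval that includes the 52.2% of other genes. There GGAAR was held by 54.3% of member peaks (39.0 to 69.1%) and 39.9% of others in HL60/MX2. In HL60 it was 25% (10.7 to 44.9%) and 41.2%, and both intervals include the share of other genes. Median lengths there were 157.5 bp for members and 107.5 bp for others in HL60/MX2, and 90.5 and 107 bp in HL60. Motif shares were not matched for length.

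Other genes that work on histones or in remodelers, 80 in number, were counted in the same way. A peak was listed for 33 of them in each line (41.3%, 30.4 to 52.8%), against 28.7 and 31.3 expected from genes of like exon number, and their peaks numbered 42 and 50 against 45.5 in each list. The difference between these genes and the chromatin genes above was not tested. Other lysine methyltransferases had a peak in 6 of 18 genes in HL60 (6.55 expected), among them EZH2, the catalytic subunit of Polycomb repressive complex 2, and in 9 of 18 in HL60/MX2 (7.06 expected). Other demethylases had a peak in 5 of 7 in HL60 (2.42 expected), among them JMJD1C and PHF8, and 3 of 7 in HL60/MX2 (2.63 expected). Acetyltransferases had a peak in 4 of 9 in each list (3.37 and 3.72 expected), with CREBBP and KAT2B in both. Deacetylases had a peak in 4 of 16 in HL60 and 7 of 16 in HL60/MX2 (5.63 and 6.20 expected). Other remodeler subunits had a peak in 14 of 30 in HL60 and 10 of 30 in HL60/MX2 (10.8 and 11.7 expected), and PBRM1, ATRX and INO80 had a peak in both.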

How the data were processed

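Cells of both lines were profiled by m7G immunoprecipitation of decapped, fragmented mRNA, with 1 enriched and 1 input library per line. The submitters' processing notes name cutadapt 1.9.3, HISAT2 2.0.4 and STAR. The authors aligned reads to hg19, called peaks with MACS (version and settings not given in the sources used here) and kept peaks over exons of protein-coding genes. Each deposited list has 6 columns, and column 5 is the score per peak as the authors deposited it, with no stated scale. The lists hold no counts of reads, which leaves the depth unknown, and the number of peaks sets the precision. Input libraries and RNA levels were not analysed here.

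Genes came from GENCODE release 44 on GRCh37 (chromosome 1 of 249250621 bp). A peak was given to the protein-coding gene of largest same-strand exon overlap. Regions and exons were those of the longest coding transcript, and 342 genes without a coding transcript model had none. Sharing between the lists needed an overlap of 1 bp or more and the same strand. The expected numbers sum, over members, the mean of non-member genes in 1 of 17 bands of exon number. Shares have exact Clopper-Pearson 95% intervals. Nothing was tested between lines, and steps were tested on simulated data. Python 3.11.15, numpy 2.4.6, scipy 1.17.1, matplotlib 3.10.9 and pysam 0.24.0 were used.

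The genes, groups and lists were chosen with earlier results of these data known. Every member was accounted for by name or count, with full values for genes with a shared peak, with 3 or more peaks in a list, or with the highest score of their group in a list. Alternatives were a minimum score, a minimum length, other gene assignment, other like genes, other rules for sharing, other region classes and 1 score per gene.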

Additional observations from a re-analysis of the deposited data

How the results depend on the processing

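Of 95 values recomputed under an alternative, 80 stayed within 1.5 times (counts) or the 95% interval (shares and medians) and 15 moved. Keeping only peaks at or above the median score of their list left 9 members with 12 peaks in HL60 and 19 members with 25 peaks in HL60/MX2, with a ratio of 0.429 to like genes in HL60 (0.989 in HL60/MX2), 4 members in both lists, 5 in HL60 alone, and 0 shared peaks in either list. This setting takes away peaks by construction. When a shared peak had to overlap by at least 50% of both peaks, 1 remained in HL60 and 1 in HL60/MX2, that of BAZ1A. With any coding isoform in place of the longest, coding shares were 58.8% (HL60) and 55% (HL60/MX2), and the 5′ end shares came to 14.7% in HL60 (from 0) and 25% in HL60/MX2 (from 14.8%). The ratio of peaks to like genes was 0.584 in HL60 and 1.03 in HL60/MX2 when like genes also matched in exon length, and 0.625 and 1.14 with merged exons of all transcripts. Without the ARID group, a division chosen after seeing the data, it was 0.446 and 0.990. For the ARID genes, leaving out ARID1B and ARID5B (also chosen after seeing the data) took it from 2.48 to 1.04 in HL60 and from 2.80 to 2.26 in HL60/MX2. No paired analysis was possible because each line has 1 enriched library and the labels give no shared replicate numbers, and no replicate could be left out. Unknown depth and unknown RNA levels limit every count of genes without a peak.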
